A study of Mus musculus with 9 samples.

Results

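Penile tissue of rats whose major pelvic ganglia had been clamped on both sides was compared with penile tissue of rats that had the operation without clamping. The comparison used 6 of the 9 libraries of the series, the 3 Injury libraries and the 3 Sham libraries, and all genes of the table that holds both. The series design text places collection 4 weeks after surgery. The other 3 libraries, from rats that received sacral neural crest cells after clamping, entered only alternative fits. A call in the fit of all 9 libraries was also a condition for naming genes by size. The labels give no strain or age and do not say that each library came from its own animal, so p-values measure the spread between these libraries. As to what was sequenced, the labels conflict: mouse stands as the organism and a line of pluripotent stem cells as the source and cell type, while the tissue and titles name rats. All 21124 gene identifiers in the table are rat identifiers. The pluripotency gene Pou5f1 had 0, 0 and 0 reads in Injury, against 1, 0 and 2 in Sham, at or near 0 in every library. Lin28a was also scarce, with 0, 0 and 4 reads in Injury, against 1, 0 and 2 in Sham. Sox2, also a pluripotency gene, went the other way and was read in every library. It had 169, 132 and 126 reads in Injury, against 225, 353 and 330 in Sham. These genes alone therefore do not settle the cell type label. Hoxd13, a homeobox gene of distal limb and genital development, had 2066, 1684 and 1966 reads in Injury, against 2198, 2384 and 1985 in Sham, and the smooth muscle myosin Myh11 had 29446, 19453 and 27435 reads in Injury, against 41726, 18073 and 16911 in Sham, both abundant in every library. On the gene identifiers, the tissue label, the titles and the reads of Hoxd13 and Myh11, the values are described as rat penile tissue.

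The major pelvic ganglia of the rat hold the autonomic nerve cells that supply the penis, and their parasympathetic fibres run in the cavernous nerves. Those fibres and the endothelium release nitric oxide, which raises cyclic GMP in the smooth muscle of the corpus cavernosum, relaxes it and lets blood fill the spaces. The spaces lie in a framework of smooth muscle, collagen and elastic fibres inside a dense collagenous sheath, the tunica albuginea.

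Total counts were 15924740, 16959134 and 18283418 in Injury 1, 2 and 3, and 17191109, 16687550 and 16164575 in Sham 1, 2 and 3, and values below follow that order of libraries. Skeletal muscle RNA differed between libraries without following the groups. Acta1, skeletal muscle actin, had 8044, 124332 and 210 reads in Injury, against 34120, 72 and 67 in Sham. Ckm, muscle creatine kinase, had 2731, 37369 and 158 reads in Injury, against 15906, 58 and 81 in Sham. Both genes were abundant in Injury 1, Injury 2 and Sham 1 and scarce in the other 3 libraries, so the groups overlapped. The 26 genes of a skeletal muscle list took 0.281 %, 3.54 % and 0.0169 % of counts in Injury, against 1.23 %, 0.00942 % and 0.0114 % in Sham. A library is called muscle-containing below where this share is over 0.1 %. The muscle itself was not of one make: for every 1000 Acta1 reads, Myh8, a perinatal myosin, had 250.4 reads in Injury 1, 17.5 in Injury 2 and 39.5 in Sham 1. Haemoglobin reads did follow the groups. Hba-a1 had 243, 278 and 541 reads in Injury, against 1235, 1769 and 1892 in Sham, with every Injury library below every Sham library, and its near-identical copies make single counts uncertain. Collagen genes took 15.1 %, 17.3 % and 18.6 % of counts in Injury, against 4.52 %, 3.77 % and 4.07 % in Sham. Reads of Rn18s, a ribosomal RNA, numbered 6937, 7002 and 7779 in Injury, against 3318, 3968 and 2926 in Sham. Counts scaled to library totals alone put the median log2 change of all tested genes at -0.30, Injury over Sham, and TMM-scaled counts, given below as scaled counts, put it at -0.00.

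**Figure D1:**
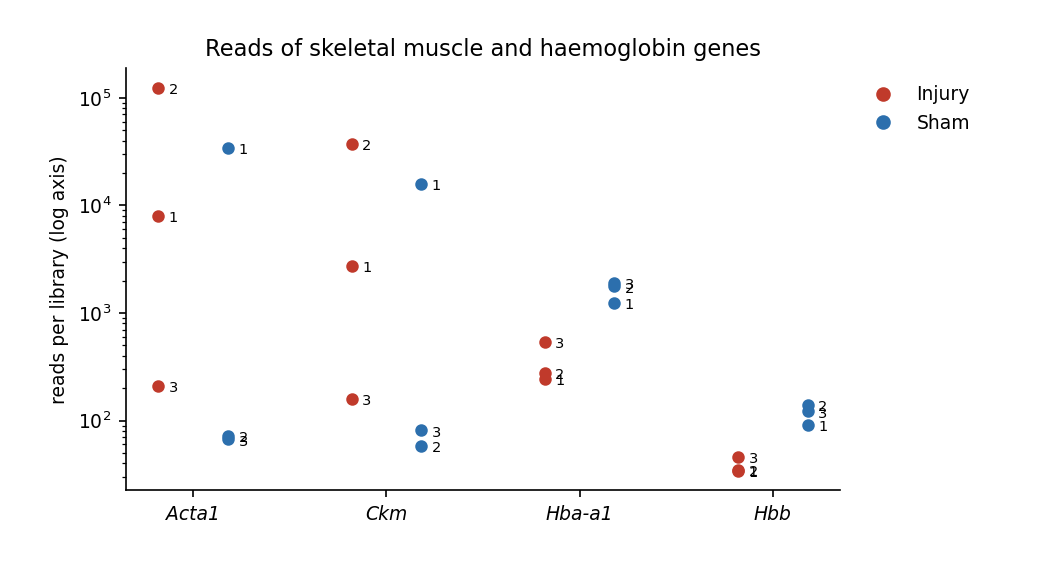
Reads per library (log axis) of the skeletal muscle genes Acta1 and Ckm and the haemoglobin genes Hba-a1 and Hbb, with the replicate number beside each point, Injury left of Sham. Acta1 reads ranged from 210 to 124332 in Injury and from 67 to 34120 in Sham, while all 3 Injury points of Hba-a1 lie below all 3 Sham points.

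Of 15247 genes tested with edgeR, 1456 (9.55 %) were called at a Benjamini-Hochberg adjusted p under 0.05, 889 higher in Injury (5.83 %) and 567 lower (3.72 %). Counts called in the gene lists below are to be read against these shares of all tested genes. The change was at least 2-fold for 360 of the higher and 198 of the lower genes, and the quartiles of all tested genes lay at -0.22 and 0.23 on the log2 scale. Injury and Sham libraries were apart, with no overlap, for 5287 genes (34.7 %), among them all 1456 called. The count rested on single libraries: 636 genes were called without Injury 1, 353 without Injury 3, 462 without Sham 2 and 146 without Sham 3, and 137 genes were called whichever library was left out. Of 208 called genes that the naming rules give, 154 lost the call without Sham 3, 117 without Injury 3, 91 without Sham 2, 78 without Injury 1, 53 without Injury 2 and 21 without Sham 1, and 0 changed direction. Of 19 instances of a gene list with 1 member called in a direction, 17 had 0 called without Sham 3. A fit to all 9 libraries called 687 of 15509 genes (4.43 %), 671 of them shared with the 1456. With muscle class as a factor 778 genes were called (5.10 %), 734 of them shared, and DESeq2 called 2487. The authors' deposited table holds 1581 genes with an adjusted p under 0.05, 1012 of them lower in Sham than in Injury.

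**Figure D2:**
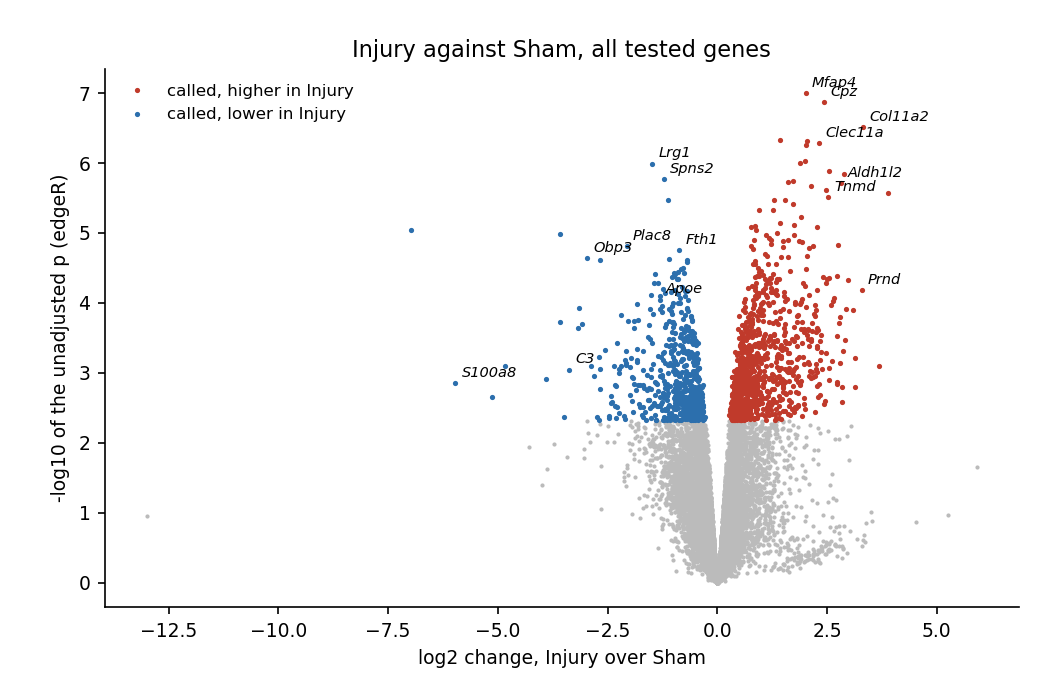
The log2 change of each tested gene, Injury over Sham, against -log10 of its unadjusted edgeR p, with called genes in red (889 higher) and blue (567 lower) and the others in grey. Mfap4 and Cpz stand at the top of the higher side and Lrg1 and Spns2 near the top of the lower side, and the grey points low on the right include skeletal muscle genes.

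On a list of fibrillar and related collagen chains, 21 of 24 tested were called higher in Injury, against 5.83 % of all tested genes. The median log2 change of the list was 1.51, against -0.00 over all tested genes. Among all 41 tested genes whose symbol is Col with a number, 23 were called higher (median 1.29). The proteins that fold, modify, cleave and crosslink collagen were higher too: 21 of 28 tested were called higher and the other 7 were not called, with a median of 0.90. Serpinh1, the collagen-specific chaperone of the endoplasmic reticulum (ER), had 27742, 36554 and 33318 scaled counts in Injury, against 14396, 12630.4 and 11831 in Sham (log2 change 1.33 ± 0.14 SE, edgeR adjusted p = 0.0061). P3h1, which hydroxylates collagen prolines inside the ER, had 1408, 1949 and 1659 scaled counts in Injury, against 785, 657 and 740.3 in Sham (log2 change 1.20 ± 0.13 SE, edgeR adjusted p = 0.0073). Bmp1, the protease that removes the C-terminal propeptide outside the cell, had 4245, 4105 and 4971 scaled counts in Injury, against 2199, 2289.9 and 2444 in Sham (log2 change 0.94 ± 0.10 SE, edgeR adjusted p = 0.007). In all 3 genes each Injury library lay above each Sham library. Pcolce, the enhancer of that protease, rose by 1.25 ± 0.15 SE on the log2 scale (edgeR adjusted p = 0.0082). The N-terminal propeptide proteases Adamts14 and Adamts2 rose by 2.51 and 1.05. Among the crosslinking oxidases, Loxl2 had 6967, 7766 and 8405 scaled counts in Injury, against 1928, 2012 and 1683 in Sham (log2 change 2.04 ± 0.11 SE, edgeR adjusted p = 0.0012), and Lox, Loxl4, Loxl3 and Loxl1 rose by 2.08, 1.27, 0.94 and 0.92. The lysyl hydroxylases differed: Plod1 was called, at 0.87, while Plod2 and Plod3 stood at 0.47 and 0.25 without a call. The 21 chains numbered 8 without Sham 3, and the 21 enzymes numbered 12 without Injury 3 and 6 without Sham 3. Of the genes named, Serpinh1, P3h1, Bmp1, Adamts14 and Loxl2 were called whichever library was left out, and Loxl1 was not called in the 9-library fit (edgeR adjusted p = 0.0619).

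More genes of the route out of the ER than of the ER's own folding machinery were called. Of 34 tested genes of ER translocation and ER to Golgi transport 15 were called higher (median log2 change 0.43). Of 32 tested ER chaperones and genes of the unfolded protein response 2 were called higher (median -0.00), against 5.83 % of all tested genes. Tmed3, a p24 family cargo receptor, had 2104, 2202 and 2197 scaled counts in Injury, against 1305, 1228 and 1267 in Sham (log2 change 0.78 ± 0.07 SE, edgeR adjusted p = 0.004), with the 3 Injury libraries close together and all above Sham. Kdelr3, a receptor that returns escaped ER proteins, had 2383, 3369 and 2602 scaled counts in Injury, against 1242, 877 and 1199 in Sham (log2 change 1.33 ± 0.18 SE, edgeR adjusted p = 0.012), again without overlap. Its relatives Kdelr2 and Kdelr1 rose by 0.73 and 0.56. The COPII coat genes Sec24d, Sec23a and Sec31a rose by 0.95, 0.93 and 0.65, and Ssr4, a subunit of the translocon-associated complex, by 0.60. By contrast Hspa5, the main ER chaperone, had 6609, 9634 and 7305 scaled counts in Injury, against 7304, 9246 and 7137 in Sham, and the groups overlapped (log2 change -0.01 ± 0.17 SE, edgeR adjusted p = 0.98). Hsp90b1, Calr, Canx and Pdia4 stood at -0.04, -0.02, -0.14 and -0.00, and the stress factors Ddit3 and Atf4 at -0.06 and 0.17, none of them called. The 2 called members were Txndc5, at 0.46, and Creb3l1, at 1.36 ± 0.20 SE (edgeR adjusted p = 0.015), a membrane-bound transcription factor that activates Col1a1 in mouse bone. The chaperone count of 2 was 0 without Injury 3, Sham 2 or Sham 3 and 1 in the 9-library fit, with muscle class as a factor or without Injury 2 or Sham 1. The transport count of 15 was 6 with muscle class as a factor, 3 without Injury 3, 4 without Sham 2 and 1 without Sham 3. Tmed3 was called whichever library was left out. Txndc5 was not called in the 9-library fit and Kdelr2, Sec31a and Txndc5 were not called with muscle class as a factor (edgeR adjusted p 0.0503 to 0.0752).

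Proline and glycine make up much of collagen. The proline enzyme Pycr1 was one of the 12 largest rises among the genes named by size. A link between the enzymes below and the collagen rise was not tested. Of 26 tested genes of serine, glycine, folate and proline metabolism 6 were called higher and 2 lower (median log2 change 0.29). The shares over all tested genes were 5.83 % higher and 3.72 % lower. Pycr1, the last enzyme of proline synthesis, had 441, 750.3 and 494 scaled counts in Injury, against 102, 68.9 and 80.0 in Sham (log2 change 2.75 ± 0.25 SE, edgeR adjusted p = 0.0047). Aldh18a1, the first enzyme of the same route, had 1138, 1852 and 1357 scaled counts in Injury, against 612, 484 and 562 in Sham (log2 change 1.39 ± 0.19 SE, edgeR adjusted p = 0.012). Both were higher in every Injury library. Prodh, which breaks proline down, went the other way, at -1.18 ± 0.27 SE (edgeR adjusted p = 0.041). Aldh1l2, a mitochondrial folate enzyme, had 1538, 2536 and 1935 scaled counts in Injury, against 281, 267 and 302 in Sham (log2 change 2.82 ± 0.19 SE, edgeR adjusted p = 0.0018), another of those 12 rises. Phgdh and Psat1, the first enzymes of serine synthesis, rose by 1.45 and 1.50, and the thymidylate synthase Tyms, also on the cell cycle list, by 0.83. The third serine enzyme Psph stood at 0.30, Shmt2 at 0.42 and Mthfd2 at 0.70, none called, and Slc3a2, a chain of amino acid transporters, was at -0.37. The count of 6 was 3 without Sham 3, and that of 2 lower was 0 with muscle class as a factor or without Injury 1, Injury 3, Sham 1, Sham 2 or Sham 3 and 1 in the 9-library fit. Pycr1, Aldh1l2 and Tyms were called whichever library was left out. Of 20 tested aminoacyl-tRNA synthetases, which charge transfer RNAs with amino acids, 1 was called higher, Cars1 at 0.54. That share is near the 5.83 % of all tested genes. Prodh and Cars1 were not called in the 9-library fit (edgeR adjusted p 0.0511 to 0.0576), and Prodh, Slc3a2 and Cars1 were not called with muscle class as a factor (edgeR adjusted p 0.066 to 0.0975).

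Elastic fibre genes were higher, 9 of 19 tested, and 1 was lower (median log2 change 0.61). Lox and Loxl1 are also on the list of collagen enzymes above and Mfap4 on the matricellular list below, so these counts are not independent. Eln, tropoelastin, had 30184, 48291 and 35410.2 scaled counts in Injury, against 6969.6, 8449 and 8250.3 in Sham (log2 change 2.27 ± 0.19 SE, edgeR adjusted p = 0.004). Mfap4, a glycoprotein of microfibrils, had 9129.9, 10091 and 9489 scaled counts in Injury, against 2380.2, 2500.2 and 2249.8 in Sham (log2 change 2.01 ± 0.09 SE, edgeR adjusted p = 0.001). In both genes the 3 Injury libraries stood well above all Sham libraries. Emilin1 and Mfap2, further microfibril-associated proteins, rose by 1.21 and 1.34, and Ltbp3, Efemp2 and Fbln5 by 0.78, 0.61 and 0.54. Efemp1, a fibulin, was the exception, at -1.03 ± 0.14 SE (edgeR adjusted p = 0.01). The count of 9 was 4 without Injury 3, 4 without Sham 2 and 4 without Sham 3. Eln, Mfap4 and Mfap2 were called whichever library was left out, Fbln5 and Efemp1 were not called in the 9-library fit and Efemp2 and Fbln5 were not called with muscle class as a factor (edgeR adjusted p 0.0531 to 0.0992 and 0.0506 to 0.081).

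On a list of matricellular and activated fibroblast genes 9 of 27 tested were called higher (median log2 change 0.91), against 5.83 % of all tested genes. Matricellular proteins are secreted and bind matrix and cells without building fibres. Sparc, a collagen-binding glycoprotein, had 465763, 488546 and 552186 scaled counts in Injury, against 141499, 118863 and 118377 in Sham (log2 change 1.99 ± 0.12 SE, edgeR adjusted p = 0.0016), and after Col1a1 and Col1a2 it gained more of the library than any other gene, 2.67 % of counts in Injury against 0.826 % in Sham. Ccn4 had 709.7, 857 and 785 scaled counts in Injury, against 235, 213 and 192 in Sham (log2 change 1.88 ± 0.12 SE, edgeR adjusted p = 0.0016). Neither gene's groups overlapped. Cilp2, a cartilage intermediate layer protein, rose by 2.76, Postn (periostin) by 1.98, Thbs2 and Thbs3 (thrombospondins) by 1.88 and 1.16, and Fap, a protease of activated fibroblasts, by 0.91. The count of 9 was 4 without Injury 3, 5 without Sham 2 and 3 without Sham 3. Sparc and Ccn4 were called whichever library was left out, and Postn and Fap were not called in the 9-library fit (edgeR adjusted p 0.0693 to 0.0793).

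Tendon markers were called higher in 6 of 10 tested (median log2 change 1.52). Most members also stand on other lists, so the count is not independent of theirs. Col12a1 is a listed collagen chain, Fmod and Kera are proteoglycans, Tnc and Thbs4 matricellular genes and Egr1 an immediate early gene. In bulk tissue more or fewer cells of a type and more or less RNA per cell cannot be told apart. Tnmd, a membrane protein of tendon cells, had 8537, 9303 and 10482 scaled counts in Injury, against 2075, 1515 and 1338 in Sham (log2 change 2.52 ± 0.18 SE, edgeR adjusted p = 0.0023), with no overlap. Mkx, a homeobox transcription factor of tendon, had 2169, 1745 and 2292 scaled counts in Injury, against 1458, 985 and 957 in Sham (log2 change 0.87 ± 0.19 SE, edgeR adjusted p = 0.039), and Fmod (fibromodulin) rose by 1.61. The count of 6 was 1 in the 9-library fit, 3 with muscle class as a factor, 2 without Injury 1, 2 without Injury 2, 1 without Injury 3, 1 without Sham 2 and 1 without Sham 3. Mkx, Fmod and Ibsp were not called in the 9-library fit (edgeR adjusted p 0.13 to 0.263), and Mkx and Fmod were not called with muscle class as a factor. Within the muscle-containing libraries the log2 difference of Tnmd was 2.10, and within the others 2.88. Of 12 tested cartilage and bone markers 2 were called, Col2a1 at 3.10 and Ibsp, a bone sialoprotein, at 2.27. Their count was 0 without Sham 3, 1 in the 9-library fit or without Injury 3 and 5 without Sham 1, and 1 was called lower without Sham 1.

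Proteoglycans were mixed, with 7 of 28 higher and 2 lower (median log2 change 0.24). The shares over all tested genes were 5.83 % higher and 3.72 % lower. Bgn (biglycan), a small leucine-rich proteoglycan that binds collagen, had 89036, 88912 and 95384 scaled counts in Injury, against 37233, 25667 and 27025 in Sham (log2 change 1.60 ± 0.16 SE, edgeR adjusted p = 0.0057), and its groups did not overlap. Hspg2, the basement membrane proteoglycan perlecan, and Gpc4, a glypican, rose by 0.72 and 0.56. Chad, chondroadherin, was at -1.79 ± 0.37 SE (edgeR adjusted p = 0.038). Dcn (decorin), the most read member, had 66826, 65899 and 92466 scaled counts in Injury, against 103942, 118271 and 142424 in Sham and no call (log2 change -0.70 ± 0.18 SE, edgeR adjusted p = 0.058). Among enzymes that build the sugar chains 6 of 31 were higher and 1 lower, led by the chondroitin polymerising factor Chpf at 1.03 ± 0.14 SE (edgeR adjusted p = 0.012). Ext1, of heparan sulfate polymerisation, and Dse, of dermatan sulfate, rose by 0.54 and 0.53, and the heparan sulfate sulfotransferase Hs3st1 was lower, at -1.02. The count of 7 higher proteoglycans was 3 in the 9-library fit, 4 without Injury 1, 4 without Injury 2, 2 without Injury 3, 2 without Sham 2 and 1 without Sham 3, and that of 6 higher chain enzymes was 2 in the 9-library fit, 3 without Injury 1, 2 without Injury 3, 2 without Sham 2 and 0 without Sham 3. The 2 lower proteoglycans numbered 0 in the 9-library fit or without Injury 1, Sham 2 or Sham 3 and 1 with muscle class as a factor or without Injury 3 or Sham 1. Bgn was called whichever library was left out, and Chad, Ext1, Dse and Hs3st1 were not called in the 9-library fit (edgeR adjusted p 0.0501 to 0.12).

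Of 42 tested matrix proteases and inhibitors 10 were higher, all proteases, and 3 were lower, Timp3 and Timp4 among them. Over all tested genes 5.83 % were called higher and 3.72 % lower. Htra1, a secreted serine protease, had 10404, 12117 and 12669 scaled counts in Injury, against 6592, 5017 and 6507 in Sham (log2 change 0.96 ± 0.14 SE, edgeR adjusted p = 0.013). The groups of Htra1 did not overlap. The membrane metalloproteinase Mmp14 rose by 1.48, Adam12, the second largest rise among the genes named by size, by 3.14 and Adamts7 by 0.68. Timp3 and Timp4, inhibitors of metalloproteinases, were at -0.63 and -0.67, and Timp1 and Timp2 at 0.47 and 0.14 without a call. The count of 10 was 3 without Injury 3, 2 without Sham 2 and 0 without Sham 3, and that of 3 lower was 0 in the 9-library fit, 1 with muscle class as a factor or without Injury 1, Sham 2 or Sham 3 and 5 without Sham 1. Timp3 and Timp4 were not called in the 9-library fit (edgeR adjusted p 0.0689 to 0.136), and Mmp14, Adam12, Timp3 and Timp4 were not called with muscle class as a factor (edgeR adjusted p 0.0512 to 0.0946).

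Integrins and basement membrane genes were higher in 11 of 35 tested and lower in 1 (median log2 change 0.28). Over all tested genes 5.83 % were called higher and 3.72 % lower. Npnt (nephronectin), an integrin ligand, had 2076, 1878 and 1856 scaled counts in Injury, against 989, 1068 and 843 in Sham (log2 change 1.00 ± 0.11 SE, edgeR adjusted p = 0.007). Col4a5, a basement membrane collagen chain, had 10646, 9457 and 9522 scaled counts in Injury, against 5021, 3715 and 3206 in Sham (log2 change 1.31 ± 0.17 SE, edgeR adjusted p = 0.01). The groups overlapped in neither. Nid2 and Nid1 (nidogens), which link laminin to collagen IV, rose by 0.80 and 0.64, the laminin chain Lama2 by 0.65, and the collagen-binding integrins Itga2 and Itga11 by 1.78 and 0.74. Itgb4, the integrin chain of epithelial hemidesmosomes, was the member that was lower, at -0.80. The count of 11 was 6 in the 9-library fit, 3 without Injury 3, 5 without Sham 2 and 2 without Sham 3. Npnt and Col4a5 were called whichever library was left out, and Nid1, Itga11 and Itgb4 were not called in the 9-library fit (edgeR adjusted p 0.0632 to 0.0904).

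The 12 largest rises were taken from called genes outside the collagen chain, cell cycle and skeletal muscle lists. These genes were also called in the 9-library fit, averaged 50 scaled counts or more in a group and had no overlap between groups. Prnd, which encodes the prion-like protein doppel, led the rises and had 89.8, 179 and 129 scaled counts in Injury, against 9.09, 11.8 and 19.5 in Sham (log2 change 3.29 ± 0.38 SE, edgeR adjusted p = 0.0082). C1qtnf3, a secreted protein with a C1q domain, had 267, 457 and 212 scaled counts in Injury, against 39.1, 46.2 and 32.6 in Sham (log2 change 2.98 ± 0.33 SE, edgeR adjusted p = 0.0071). S100vp and the secreted metalloproteinase Adamts17 rose by 2.79 and 2.55. The other members of the 12 were Adam12, Aldh1l2, Cilp2 and Pycr1, given above, and the mitosis genes Fam83d, Cenpw, Ska1 and Cdca3, at 2.72, 2.72, 2.71 and 2.64, which act in spindle or centromere function and are not members of the cell cycle list. That list held 24 of 36 tested genes higher and 1 lower, Ccnd1 at -0.51. Its count of 24 was 13 with muscle class as a factor, 14 without Injury 1, 10 without Injury 3, 15 without Sham 2 and 4 without Sham 3. Of the genes named, Prnd, C1qtnf3, S100vp, Adamts17 and Ska1 were called whichever library was left out, Ccnd1 was not called in the 9-library fit (edgeR adjusted p = 0.125), and Cenpw and Ccnd1 were not called with muscle class as a factor (edgeR adjusted p 0.0608 to 0.0639).

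Under the same conditions the 12 largest falls were led by S100a8 and S100a9, the subunits of calprotectin, on few reads. C3, given below, fell by more than most of the 12 but was not called in the 9-library fit. S100a8 had 0, 2 and 0 reads in Injury, against 99, 16 and 62 in Sham. S100a9 had 1, 4 and 2 reads in Injury, against 156, 17 and 137 in Sham. Most Sham reads of both came from Sham 1 and Sham 3. Sult1c3, a cytosolic sulfotransferase, had 16.6, 9.41 and 14.5 scaled counts in Injury, against 80.0, 399 and 130.2 in Sham (log2 change -3.89 ± 0.71 SE, edgeR adjusted p = 0.025). Plac8 had 71.0, 68.2 and 48.5 scaled counts in Injury, against 296, 235 and 256 in Sham (log2 change -2.07 ± 0.19 SE, edgeR adjusted p = 0.0047). No Injury library reached the level of any Sham library in these genes. Abcb1b, a P-glycoprotein drug exporter, was at -2.47 on the log2 scale, Oas1k, of the interferon-induced oligoadenylate synthetase family, at -2.20, and Abat, which degrades GABA, at -1.89. Epithelium makes Lcn2 and Clca1, and the summed scaled count of 17 epithelial markers was 31404, 27625 and 21876 in Injury, against 24888, 54308 and 42938 in Sham, with overlap, and its part in the falls was not tested. The remaining falls were Obp3 at -2.96, Lcn2 at -2.66, Galnt15 at -2.28, Clca1 at -2.20 and Tmem63c at -1.82. Of these, Plac8, Obp3, Lcn2 and Tmem63c were called whichever library was left out, and S100a9, Sult1c3, Abcb1b and Galnt15 were not called with muscle class as a factor (edgeR adjusted p 0.0534 to 0.0639). Among the 10 most read genes of the same kind, 7 rose, Sparc, Bgn, Eln, Serpinh1, Hspg2, Pcolce and Calu, the last a calcium-binding ER protein at 0.79. The 3 that fell were Txnip, which binds thioredoxin, at -0.89, the extracellular chaperone Clu at -1.04 and Clec2g at -0.80.

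**Figure D3:**
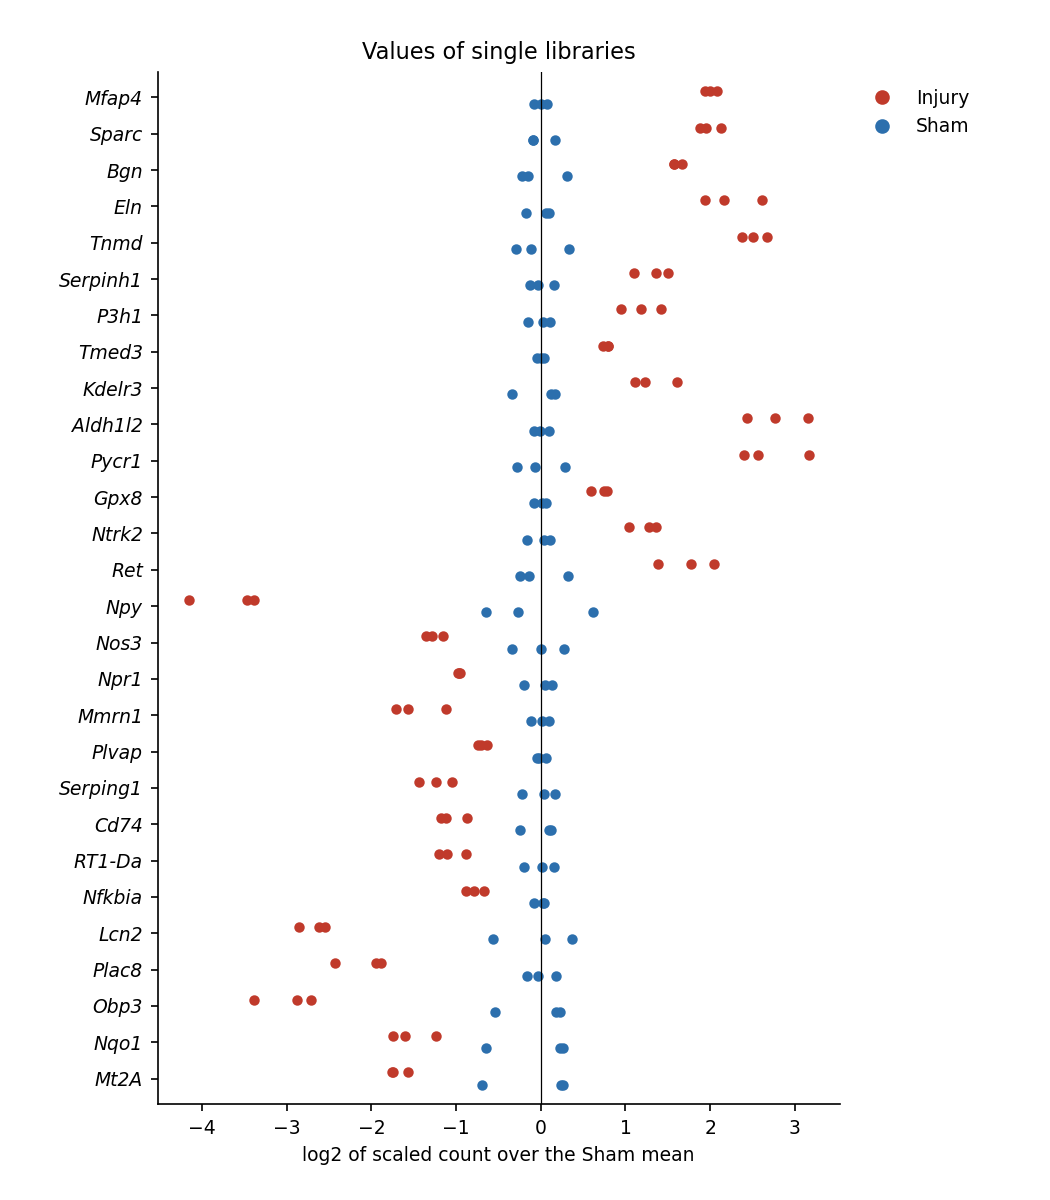
Scaled count of each library as log2 of its ratio to the Sham mean, for genes the text gives, with Injury points drawn above Sham points in each row. In every gene shown the 3 Injury points lie on one side of the 3 Sham points: those of Mfap4, 9129.9 to 10091 scaled counts in Injury, lie right of Sham, and those of Plac8, 48.5 to 71.0 in Injury, lie left of it.

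Endothelial genes were lower: 15 of 21 tested markers were called lower, all 21 had a log2 change below 0, and the median was -0.69. The share called lower over all tested genes was 3.72 %, which also stands against the erythroid and lymphatic counts below. Kdr, the main receptor of vascular endothelial growth factor, had 824, 959.7 and 873 scaled counts in Injury, against 1454, 1491 and 1516 in Sham (log2 change -0.75 ± 0.08 SE, edgeR adjusted p = 0.007). Plvap, of the diaphragms of fenestrated endothelium, had 1291, 1355 and 1265 scaled counts in Injury, against 2079, 2199 and 2040.5 in Sham (log2 change -0.69 ± 0.07 SE, edgeR adjusted p = 0.006). Mmrn2, a matrix protein of endothelium, had 1453, 1524 and 1273 scaled counts in Injury, against 2773, 3102 and 2545 in Sham (log2 change -0.99 ± 0.11 SE, edgeR adjusted p = 0.007). Every Injury library was below every Sham library in each of them. The angiopoietin receptor Tek, the junction proteins Pecam1 and Esam and the transcription factors Sox17 and Erg were at -0.74, -0.71, -0.43, -0.78 and -0.57. Vwf, the von Willebrand factor, was at -1.17, and Cdh5, the endothelial cadherin, at -0.29 ± 0.11 SE without a call (edgeR adjusted p = 0.14). The count of 15 was 6 without Injury 3, 9 without Sham 2 and 3 without Sham 3. Kdr, Plvap, Mmrn2 and Mmrn1 were called whichever library was left out, and Pecam1, Vwf, Mmrn1 and Reln were not called in the 9-library fit (edgeR adjusted p 0.0517 to 0.185). Of 4 tested erythroid markers 3 were called lower, Hba-a1, Hbb and Alas2. Alas2, with 4, 3 and 6 reads in Injury, passed the low-count filter only through its Sham reads. The summed scaled count of all 4, the uncalled Ahsp included, was 403, 410.4 and 653 in Injury, against 1318, 1802 and 1947 in Sham. Slc4a1, the red cell anion exchanger, had 0, 0 and 0 reads in Injury, against 2, 3 and 2 in Sham. The count of 3 was 0 in the 9-library fit, 1 without Injury 1, 1 without Injury 2, 1 without Injury 3, 0 without Sham 2 and 0 without Sham 3. The part of blood content in the endothelial and immune values was not tested. Lymphatic endothelial markers were called lower in 2 of 8 tested, Mmrn1 at -1.44 ± 0.16 SE (edgeR adjusted p = 0.0073) and Reln at -0.80, while Prox1, which specifies lymphatic endothelium, stood at -0.06 without a call. The lymphatic count of 2 was 0 in the 9-library fit and 1 with muscle class as a factor or without Injury 1, Injury 3, Sham 2 or Sham 3.

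Of 28 tested genes of nitric oxide and cyclic GMP signalling, the route of erection, 2 were called lower, against 3.72 % of all tested genes (median log2 change -0.02). Nos3, the endothelial nitric oxide synthase, had 439, 506 and 459 scaled counts in Injury, against 887, 1360.2 and 1122 in Sham (log2 change -1.26 ± 0.16 SE, edgeR adjusted p = 0.0094). Npr1, the natriuretic peptide receptor that makes cyclic GMP, had 425, 426 and 431 scaled counts in Injury, against 724, 914 and 859 in Sham (log2 change -0.96 ± 0.10 SE, edgeR adjusted p = 0.007). The groups did not overlap in these genes. Nos1, the neuronal synthase, had 151, 138 and 61.9 scaled counts in Injury, against 106, 127 and 118 in Sham, with overlapping groups and no call (log2 change -0.01 ± 0.32 SE, edgeR adjusted p = 0.99). The higher Injury values came from the muscle-containing Injury 1 and Injury 2. Among libraries that were not muscle-containing, Injury 3 had 61.9, against 127 and 118 in Sham 2 and Sham 3. The muscle-containing Sham 1 had 106. The part of skeletal muscle in the Nos1 values was not tested. In the smooth muscle arm, Gucy1a1 and Gucy1b1, the subunits of soluble guanylyl cyclase, stood at -0.16 and 0.13, the cyclic GMP-dependent kinase Prkg1 at 0.32 and Pde5a, the phosphodiesterase that degrades cyclic GMP, at 0.38, none called. The count of 2 was 1 without Sham 3 and 4 without Sham 1. A p above the threshold does not show that these levels were equal. Npr1 was called whichever library was left out.

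Of 29 tested vasoconstrictor genes 4 were called lower and 1 higher, against 3.72 % and 5.83 % of all tested genes. Edn1, the precursor of endothelin, had 196, 135 and 155 scaled counts in Injury, against 394, 283 and 354 in Sham (log2 change -1.08 ± 0.19 SE, edgeR adjusted p = 0.02). Its processing enzyme Ece1 and its receptor Ednrb were at -0.59 and -0.66, and Ace, which makes angiotensin II, at -1.04 ± 0.13 SE (edgeR adjusted p = 0.0096). All libraries of Injury were below those of Sham in these 4 genes. The alpha-adrenergic receptor Adra1d rose, with 37, 49 and 36 reads in Injury, against 22, 19 and 19 in Sham. The receptors Ednra and Agtr2 stood at 0.52 and 1.84, and Rock1 and Rock2, kinases of contraction, at -0.31 and -0.13, none called. The lower count of 4 was 0 without Sham 3 and 2 without Injury 3, and the higher count of 1 was 0 in the 9-library fit or without Injury 1, Injury 2, Injury 3, Sham 2 or Sham 3 and 7 without Sham 1. Ednrb and Adra1d were not called in the 9-library fit or with muscle class as a factor (edgeR adjusted p 0.0636 to 0.127 and 0.0663 to 0.0798).

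Of 21 tested genes of contractile smooth muscle 1 was called, Npnt, higher, and the median was 0.36. Myh11 had 32654, 22878 and 28317 scaled counts in Injury, against 37921, 16377 and 15728 in Sham (log2 change 0.26 ± 0.37 SE, edgeR adjusted p = 0.69). Acta2, smooth muscle actin, had 31291, 24379 and 26326 scaled counts in Injury, against 32972, 16242 and 15384 in Sham (log2 change 0.34 ± 0.31 SE, edgeR adjusted p = 0.51). The groups overlapped in both, and Sham 1 had the highest value of the 6 libraries in each. Without Sham 1, 12 of the 21 smooth muscle genes were called higher and the median was 0.87. Several list members, among them Des and Ldb3, are also made by skeletal muscle, whose reads are given above. Of 34 tested ion channel and gap junction genes 2 were higher and 2 lower, near the 5.83 % and 3.72 % of all tested genes. Gja1, connexin 43, which couples smooth muscle cells, had 1796, 3362 and 2468 scaled counts in Injury, against 1012, 858 and 1012 in Sham (log2 change 1.40 ± 0.23 SE, edgeR adjusted p = 0.019). The mechanosensitive channel Piezo2 rose by 1.04, and the calcium release channel Itpr1 and the cation channel Trpv4 were lower, at -0.47 and -0.94. The higher count of the channel list was 0 without Sham 3, 1 in the 9-library fit or without Injury 3 or Sham 2 and 7 without Sham 1, and the lower count 0 in the 9-library fit or without Injury 1, Injury 3, Sham 2 or Sham 3 and 1 with muscle class as a factor or without Injury 2. Pericyte markers were called higher in 2 of 10 tested. Ndufa4l2, a mitochondrial protein enriched in pericytes, had 943, 1507 and 1330.5 scaled counts in Injury, against 257, 329.9 and 332 in Sham (log2 change 2.04 ± 0.20 SE, edgeR adjusted p = 0.0057), and the Notch target Heyl rose by 0.82, while Rgs5, Pdgfrb and Abcc9 stood at 0.18, 0.32 and 0.14 without a call. The pericyte count was 1 without Sham 3 and 4 without Sham 1. Piezo2, Itpr1 and Trpv4 were not called in the 9-library fit (edgeR adjusted p 0.066 to 0.158), and Ndufa4l2 was called whichever library was left out.

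Immune genes were called lower in each of the lists that follow, and the counts depended on which libraries entered the fit. The share called lower over all tested genes was 3.72 %. The lists share members, so their counts are not independent. Psmb8 and Psmb9 count for both antigen presentation and interferon response, and Cxcl1 for both chemokines and NF-kappa-B targets. For complement and coagulation 10 of 27 tested genes were called lower (median log2 change -0.69). Serping1, the inhibitor of complement C1, had 3035, 3491 and 3969 scaled counts in Injury, against 7031, 8416 and 9203 in Sham (log2 change -1.23 ± 0.14 SE, edgeR adjusted p = 0.0081). C3, the central complement component, had 98.7, 74.1 and 111 scaled counts in Injury, against 425, 1656 and 875 in Sham (log2 change -3.37 ± 0.54 SE, edgeR adjusted p = 0.022), with no overlap and a wide range within Sham. The complement proteins C4a, Cfi and C6 were at -1.37, -1.69 and -2.47. On the side of coagulation, tissue factor F3 was at -1.22 ± 0.19 SE (edgeR adjusted p = 0.017) and the protein C receptor Procr at -1.02. The count of 10, which includes Vwf, was 1 in the 9-library fit, 4 without Injury 1, 4 without Injury 2, 3 without Injury 3 and 2 without Sham 3. Serping1 was called whichever library was left out, and Serping1, C3, C4a, Cfi, C6 and F3 were not called in the 9-library fit (edgeR adjusted p 0.0756 to 0.213).

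For antigen presentation 7 of 19 tested genes were called lower (median log2 change -0.87). RT1-Da, a rat class II chain, had 1631, 1899 and 1532 scaled counts in Injury, against 3071, 3543 and 3922 in Sham (log2 change -1.06 ± 0.12 SE, edgeR adjusted p = 0.0082). Cd74, the invariant chain that accompanies class II, had 3084, 3671 and 2977 scaled counts in Injury, against 5638, 7166 and 7316 in Sham (log2 change -1.05 ± 0.14 SE, edgeR adjusted p = 0.01). In both the groups did not overlap. RT1-DMa and RT1-DMb, which load peptide, were at -0.85 and -0.83, the lysosomal protease Ctss at -1.18, and the immunoproteasome subunits Psmb9 and Psmb8 at -0.95 and -0.76. Genes of the MHC have close paralogs, so their reads may be split between copies. The count of 7 was 1 in the 9-library fit, 4 without Injury 1, 3 without Injury 3 and 1 without Sham 3. RT1-Da was called whichever library was left out, and RT1-Da, Cd74, RT1-DMa, RT1-DMb, Ctss and Psmb8 were not called in the 9-library fit (edgeR adjusted p 0.165 to 0.283).

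Among chemokines and receptors 7 of 28 tested were called lower (median log2 change -0.97). Ackr1, the atypical chemokine receptor of venules and red cells, had 192, 167 and 228 scaled counts in Injury, against 418, 714 and 604 in Sham (log2 change -1.56 ± 0.22 SE, edgeR adjusted p = 0.012). Ccl19 had 9.98, 9.41 and 5.16 scaled counts in Injury, against 34.5, 34.4 and 20.5 in Sham (log2 change -1.86 ± 0.38 SE, edgeR adjusted p = 0.029). The groups overlapped in neither gene. Of 24 tested NF-kappa-B targets and adhesion genes 8 were called lower (median -0.51). Nfkbia, the inhibitor that NF-kappa-B induces, had 1264, 1368 and 1185 scaled counts in Injury, against 2074, 2246 and 2230.2 in Sham (log2 change -0.78 ± 0.08 SE, edgeR adjusted p = 0.0068). Sele, E-selectin of activated endothelium, was at -1.50, Vcam1 at -0.52, Irf1 at -0.55 and the interleukin 1 receptor Il1r1 at -0.51. Of 26 tested interferon response genes 7 were called lower (median -0.41), led by Bst2 at -0.99 ± 0.14 SE (edgeR adjusted p = 0.012) and Gbp5 at -0.66. The chemokine count of 7 was 2 in the 9-library fit, 3 with muscle class as a factor, 1 without Injury 1, 2 without Injury 2, 1 without Injury 3, 11 without Sham 1, 2 without Sham 2 and 0 without Sham 3. The NF-kappa-B count of 8 was 3 in the 9-library fit, 2 without Injury 1, 3 without Injury 2, 2 without Injury 3, 2 without Sham 2 and 1 without Sham 3. The interferon count of 7 was 1 in the 9-library fit, 2 with muscle class as a factor, 3 without Injury 1, 4 without Injury 2, 0 without Injury 3, 2 without Sham 2 and 0 without Sham 3. Nfkbia was called whichever library was left out, and Ccl19, Vcam1, Irf1, Bst2 and Gbp5 were not called in the 9-library fit (edgeR adjusted p 0.0559 to 0.0692).

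Macrophage markers were called lower in 4 of 17 tested, 16 of them had a log2 change below 0, and the median was -0.89. Lyz2 (lysozyme) had 2543, 3009.6 and 2723 scaled counts in Injury, against 5264, 5001 and 7418 in Sham (log2 change -1.10 ± 0.17 SE, edgeR adjusted p = 0.015). C1qc, a chain of complement C1q made by macrophages, had 618, 682 and 879 scaled counts in Injury, against 1153, 1991 and 2208 in Sham (log2 change -1.30 ± 0.26 SE, edgeR adjusted p = 0.034). Neither overlapped between groups. Cd163 and Mrc1, scavenger receptors of resident macrophages, stood at -1.88 and -1.01 without a call. The count of 4 was 0 in the 9-library fit, 0 without Injury 1, 1 without Injury 2, 1 without Injury 3, 8 without Sham 1, 1 without Sham 2 and 1 without Sham 3. Neutrophil markers were called lower in 5 of 6 tested of the 14 listed, against 3.72 % of all tested genes, on few reads. Lcn2 had 38, 29 and 39 reads in Injury, against 350, 185 and 274 in Sham (log2 change -2.66 ± 0.27 SE, edgeR adjusted p = 0.006). Csf3r had 12, 12 and 8 reads in Injury, against 41, 28 and 48 in Sham, and Cxcr2 had 5, 4 and 4 reads in Injury, against 41, 13 and 26 in Sham. S100a8, S100a9 and Cxcr2 passed the low-count filter only through their Sham reads. The filter thus favoured markers that were high in Sham, and 5 of 6 is no test of a neutrophil fall. The granule genes Mpo, Elane and Camp had 3 reads or fewer in each library and failed the low-count filter. Lcn2 is also made by epithelium. The neutrophil count of 5 was 3 with muscle class as a factor, 1 without Injury 1, 1 without Injury 2, 1 without Injury 3, 3 without Sham 1 and 1 without Sham 3. Cd3g was the called member of 4 tested T and NK cell genes, at -2.30, and Kit and Gata2, also expressed outside mast cells, were the 2 called of 8 tested mast cell genes, at -0.67 and -0.93, while the mast cell proteases Cpa3, Tpsab1 and Cma1 were not called. The mast cell count of 2 was 0 in the 9-library fit or without Injury 3, Sham 2 or Sham 3 and 1 without Injury 2. Lcn2 was called whichever library was left out, and Lyz2, C1qc, Csf3r, Cd3g, Kit and Gata2 were not called in the 9-library fit (edgeR adjusted p 0.0536 to 0.328).

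Of 36 tested genes of oxidative stress defence 5 were called lower and 2 higher (median log2 change -0.43). Over all tested genes 3.72 % were called lower and 5.83 % higher. The 2 called higher, Gpx8 and Prdx4, are peroxidases of the ER, but their share is near that of all tested genes. Gpx8 had 2277, 2542 and 2595 scaled counts in Injury, against 1526, 1433 and 1576 in Sham (log2 change 0.71 ± 0.08 SE, edgeR adjusted p = 0.0081), without overlap, and Prdx4 rose by 0.58. Among the lower genes, Nqo1, a quinone reductase, had 989, 693 and 765 scaled counts in Injury, against 1480.5, 2713 and 2779.9 in Sham (log2 change -1.51 ± 0.27 SE, edgeR adjusted p = 0.025), also without overlap. The glutathione synthesis subunit Gclc was at -0.97, the glutathione transferase Gstm1 at -1.19, the metallothionein Mt2A at -1.68 and the extracellular superoxide dismutase Sod3 at -0.51. The count of 5 was 3 with muscle class as a factor, 3 without Injury 2, 2 without Injury 3, 10 without Sham 1 and 0 without Sham 3. Of 29 tested genes induced by glucocorticoids or FOXO factors 7 were called lower and 1 higher (median -0.39). Fkbp5, a co-chaperone of the glucocorticoid receptor, had 2120.3, 1652 and 2209 scaled counts in Injury, against 3599.8, 4322 and 3292 in Sham (log2 change -0.91 ± 0.15 SE, edgeR adjusted p = 0.017), and Tsc22d3 (GILZ) and the transcription factor Foxo1 were at -0.93 and -0.59. Sesn3 (sestrin) was the member that rose, at 0.86. The count of 7 was 3 without Injury 1, 3 without Injury 3 and 1 without Sham 3. Gpx8 and Sesn3 were called whichever library was left out, and Nqo1, Gclc, Sod3 and Foxo1 were not called in the 9-library fit (edgeR adjusted p 0.0709 to 0.122).

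In glycolysis and the hypoxia response 3 of 34 were higher and 4 lower, against 5.83 % and 3.72 % of all tested genes. These numbered 1 in the 9-library fit, 1 without Injury 3 and 1 without Sham 3 for the higher genes and 0 in the 9-library fit, 2 with muscle class as a factor, 1 without Injury 1, 1 without Injury 3, 1 without Sham 2 and 0 without Sham 3 for the lower. Car9, a carbonic anhydrase induced by hypoxia, had 143, 82.3 and 119 scaled counts in Injury, against 21.8, 22.7 and 12.1 in Sham (log2 change 2.60 ± 0.33 SE, edgeR adjusted p = 0.0094), without overlap, while Ndrg1 and Pfkfb3, also induced by hypoxia, were lower, at -0.82 and -0.60. Of 38 tested genes of oxidative phosphorylation 0 were called by edgeR, 3 had an unadjusted p under 0.05, and 0 were called by DESeq2 (median log2 change 0.15). In cholesterol synthesis 2 of 25 were higher, Hmgcs1 and Cyp51 at 0.81 and 0.81, and in fatty acid metabolism 3 of 32, the desaturases Fads1 and Fads2 at 0.61 and 0.67 and the synthase Fasn at 0.41. The lipases Pnpla2 and Lipe were the 2 called, both lower, of 12 tested adipocyte genes, at -0.73 and -0.73, while Adipoq and Plin1 were at 1.38 and 1.19 without a call. The 2 adipocyte genes numbered 1 without Sham 2 or Sham 3. The 2 cholesterol genes numbered 0 without Injury 1, Injury 3, Sham 2 or Sham 3 and 1 with muscle class as a factor, and the 3 fatty acid genes numbered 0 in the 9-library fit, 1 without Injury 1, 1 without Injury 3, 0 without Sham 2 and 0 without Sham 3. Car9, Ndrg1, Pfkfb3, Fads1, Fads2 and Fasn were not called in the 9-library fit (edgeR adjusted p 0.0542 to 0.263), and Car9 and Pnpla2 were called whichever library was left out.

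Nerve genes were read at low depth in this tissue, which holds axons but no cell bodies of the pelvic ganglia. Of 11 tested nerve fibre genes 2 were called lower, against 3.72 % of all tested genes. Npy, a peptide of sympathetic fibres, had 3, 3 and 2 reads in Injury, against 62, 26 and 33 in Sham (log2 change -3.59 ± 0.50 SE, edgeR adjusted p = 0.012). Stmn2, a growth cone protein of neurons, had 6, 1 and 7 reads in Injury, against 21, 34 and 35 in Sham (log2 change -2.40 ± 0.52 SE, edgeR adjusted p = 0.037). Both had their 3 lowest values in Injury and passed the low-count filter only through their Sham reads, so their count is no test of a nerve fibre fall. The count of 2 nerve fibre genes was 0 without Injury 3 or Sham 3 and 1 in the 9-library fit, with muscle class as a factor or without Injury 1 or Sham 2. The transmitter genes Th, Vip, Dbh and Tac1 had 5 reads or fewer in each library and failed the low-count filter, so their change was not detectable at this depth. The neurofilament genes Nefl and Nefm stood at 0.26 and 0.08 without a call. Of 20 tested Schwann cell genes 0 were called by edgeR, 1 had an unadjusted p under 0.05, and 1 was called by DESeq2 (median log2 change -0.01). Sox10, the Schwann cell transcription factor, had 416, 215 and 291 scaled counts in Injury, against 429.9, 226 and 235 in Sham (log2 change 0.05 ± 0.34 SE, edgeR adjusted p = 0.94), and its groups overlapped. Stmn2 was not called in the 9-library fit (edgeR adjusted p = 0.0858).

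Of 25 tested genes of neurotrophic factors and their receptors 3 were called higher and 1 lower (median log2 change -0.00), against 5.83 % and 3.72 % of all tested genes. Ntrk2, the receptor of brain-derived neurotrophic factor, had 1639, 1923 and 2044 scaled counts in Injury, against 856, 711 and 817 in Sham (log2 change 1.23 ± 0.11 SE, edgeR adjusted p = 0.0047). Ret, the signalling receptor of the glial cell line-derived factor family, had 414, 655 and 541 scaled counts in Injury, against 198, 133 and 144 in Sham (log2 change 1.76 ± 0.22 SE, edgeR adjusted p = 0.0093). Its co-receptor Gfra1 had 619.9, 630.4 and 815 scaled counts in Injury, against 469.9, 427 and 381 in Sham (log2 change 0.69 ± 0.14 SE, edgeR adjusted p = 0.029). In all 3 every Injury library exceeded every Sham library. Their ligands were read rarely: Gdnf had 17, 9 and 13 reads in Injury, against 12, 1 and 10 in Sham, and Bdnf had 4, 1 and 3 reads in Injury, against 13, 16 and 10 in Sham, neither called. Il6st, the shared receptor chain of interleukin 6 cytokines, was at -0.37. The 3 higher genes numbered 1 without Sham 3, and the 1 lower gene 0 in the 9-library fit, with muscle class as a factor or without Injury 1, Injury 2, Injury 3, Sham 2 or Sham 3 and 2 without Sham 1. Of 38 tested axon guidance genes 1 was higher and 2 lower, against 5.83 % and 3.72 % of all tested genes. The semaphorin Sema3b was higher, at 1.12. Lower were Sema3g, made by arterial endothelium in mouse, at -0.84, and the semaphorin receptor Plxna2, at -0.54. The higher count of that list was 0 in the 9-library fit or without Injury 1, Injury 3, Sham 2 or Sham 3, 2 with muscle class as a factor or without Injury 2 and 3 without Sham 1, and the lower count 0 in the 9-library fit and 1 with muscle class as a factor or without Injury 1, Injury 2, Injury 3, Sham 2 or Sham 3. Ntrk2 was called whichever library was left out, Il6st, Sema3b, Sema3g and Plxna2 were not called in the 9-library fit (edgeR adjusted p 0.0511 to 0.161), and Gfra1, Il6st and Plxna2 were not called with muscle class as a factor (edgeR adjusted p 0.0506 to 0.0832).

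Of 30 tested HOX genes, transcription factors that set position along the body, 5 were lower, all of the Hoxb cluster, and 1 was higher, Hoxc10 at 1.05, against 3.72 % lower and 5.83 % higher of all tested genes. Hoxb9 had 22.2, 23.5 and 22.7 scaled counts in Injury, against 45.4, 69.8 and 46.5 in Sham (log2 change -1.24 ± 0.25 SE, edgeR adjusted p = 0.031). Hoxb7 had 93.2, 128 and 81.5 scaled counts in Injury, against 178, 210.2 and 180.4 in Sham (log2 change -0.91 ± 0.20 SE, edgeR adjusted p = 0.038). Neither overlapped between groups. Hoxb3, Hoxb4 and Hoxb5 were at -0.67, -1.30 and -0.96. The distal genes Hoxd13 and Hoxa13 stood at 0.07 and 0.05 without a call. The 5 lie on chromosome 10 of the deposited table, from Hoxb9, whose start is 81237312, to Hoxb3, whose end is 81313107, and the other 3 tested members of the cluster were not called. The count of 5 lower was 2 in the 9-library fit, 0 with muscle class as a factor, 0 without Injury 1, 3 without Injury 2, 0 without Injury 3, 3 without Sham 1, 0 without Sham 2 and 0 without Sham 3. For Wnt signalling 5 of 43 were higher and 1 lower: the ligand Wnt5a had 950.4, 967 and 887 scaled counts in Injury, against 493, 392 and 597 in Sham (log2 change 0.92 ± 0.15 SE, edgeR adjusted p = 0.018), the secreted inhibitor Wif1 rose by 1.17 and the inhibitor Sfrp5 was at -1.12. The Wnt count of 5 was 2 in the 9-library fit, 2 with muscle class as a factor, 0 without Injury 1, 2 without Injury 2, 0 without Injury 3, 8 without Sham 1, 1 without Sham 2 and 1 without Sham 3. In hedgehog signalling the receptor component Smo, the co-receptor Cdon and the transcription factor Gli3 were higher, at 0.55, 0.72 and 0.70, 3 of 13 tested, while the pathway targets Gli1 and Ptch1 stood at 0.44 and -0.43 without a call. The hedgehog count of 3 was 0 without Injury 3 or Sham 3 and 1 in the 9-library fit, with muscle class as a factor or without Sham 2. Hoxb9, Hoxb3, Hoxb5, Wif1, Sfrp5, Cdon and Gli3 were not called in the 9-library fit (edgeR adjusted p 0.0523 to 0.213), and none of the genes of these 3 lists was called whichever library was left out.

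For TGF-beta and BMP signalling, a known driver of collagen synthesis, 2 of 44 tested genes were higher and 1 lower, shares under those of all tested genes, 5.83 % and 3.72 % (median log2 change -0.05). Chrd (chordin), which binds BMP ligands, and the receptor Acvr1 rose by 0.99 and 0.44, and Bmp4 was at -0.72 ± 0.13 SE (edgeR adjusted p = 0.023). The ligands Tgfb1, Tgfb2 and Tgfb3 stood at -0.09, 0.12 and 0.42, none called. The higher count of 2 was 0 without Sham 3, 1 with muscle class as a factor or without Injury 1, Injury 3 or Sham 2 and 5 without Sham 1. Of 15 tested imprinted growth genes 4 were called higher (median 0.66). Peg3 had 1697, 2245 and 1903 scaled counts in Injury, against 1167, 863 and 1008 in Sham (log2 change 0.94 ± 0.15 SE, edgeR adjusted p = 0.015), and Grb10, an adaptor that restrains growth factor receptors, Igf2r and Peg10 rose by 0.81, 0.65 and 1.34. The growth factor Igf2 itself stood at 0.04 without a call. The imprinted count of 4 was 2 with muscle class as a factor, 1 without Injury 3, 1 without Sham 2 and 0 without Sham 3. Bmp4, Igf2r and Peg10 were not called in the 9-library fit (edgeR adjusted p 0.0525 to 0.0975).

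Of 25 tested skeletal muscle genes 0 were called by edgeR, 0 had an unadjusted p under 0.05 and 0 were called by DESeq2, with a median log2 change of 1.88 and most of the reads in Injury 2. Of 17 tested genes of muscle satellite cells and the response to denervation 0 were called by edgeR, 3 had an unadjusted p under 0.05 and 2 were called by DESeq2. Myog, a transcription factor of muscle differentiation, had 49, 177 and 0 reads in Injury, against 27, 0 and 0 in Sham. Chrna1, a subunit of the muscle acetylcholine receptor, had 77, 71 and 1 reads in Injury, against 28, 0 and 0 in Sham. Both were read mainly in the muscle-containing libraries. For every 1000 Acta1 reads Myog had 6.09 reads in Injury 1, 1.42 in Injury 2 and 0.791 in Sham 1. Myh8, given above, ranked these libraries otherwise, with Injury 2 lowest. With 1 muscle-containing Sham library, a group difference within muscle was not tested. The lists of the circadian clock, heat shock proteins and the proteasome held 0 genes called by edgeR of 20, 27 and 30 tested, 2, 0 and 1 with an unadjusted p under 0.05, and 1, 0 and 0 called by DESeq2. Of 34 tested cytosolic ribosomal proteins 1 was called, Rpl35 at -0.41. Epithelial markers were called higher in 2 of 17, Krt13 at 1.38 and Krt10 at 0.74, and lower in 1, the urothelial gene Upk3a at -1.14. Over all tested genes 5.83 % were called higher and 3.72 % lower. Without Sham 1 the lower epithelial count was 9. The higher epithelial count was 0 without Injury 3, Sham 2 or Sham 3 and 1 in the 9-library fit, with muscle class as a factor or without Injury 1. Rpl35, Krt10 and Upk3a were not called in the 9-library fit or with muscle class as a factor.

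**Figure D4:**
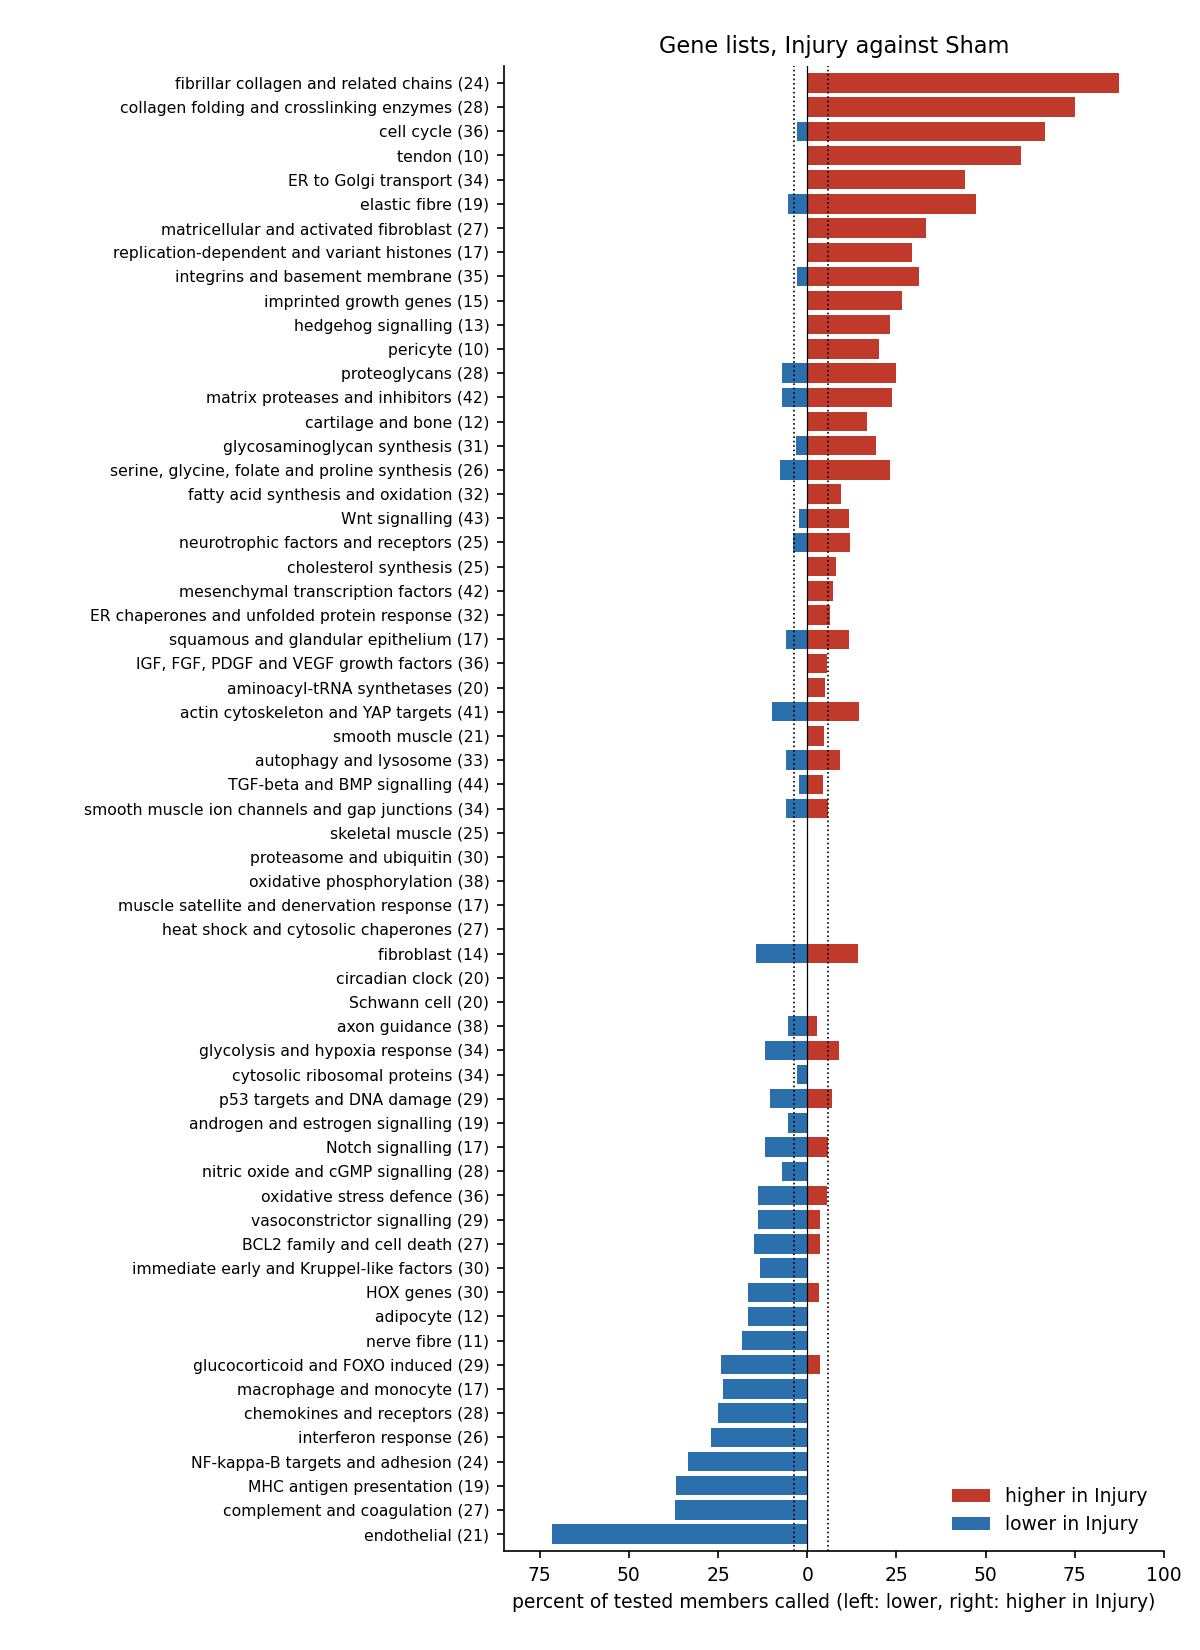
Percent of the tested members of each gene list that were called, higher in Injury to the right and lower to the left, for lists with at least 10 tested members ordered by the share higher minus the share lower, with the number tested in brackets. Dotted lines mark the share of all tested genes called, 5.83 % higher and 3.72 % lower, and collagen and its enzymes reach furthest right and endothelial genes furthest left.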

How the data were processed

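RNA-seq libraries of penile tissue were compared, 3 Injury and 3 Sham. The authors deposited raw read counts per gene for each library, together with each group's unscaled mean count (a signal), a log2 fold change of Sham over Injury, a test statistic (a score), a p-value and an adjusted p-value. Per the submitters' processing notes HISAT2 2.0.5 was used, and the build named there is GRCm38.p6, a mouse build, although all gene identifiers of the table are rat. Neither the tool that counted reads, nor its handling of strand, nor the rat build is given in the sources used here. Reads of overlapping or antisense genes therefore cannot be told apart. Every library column matched 1 label.

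The deposited counts were tested with edgeR 4.0.16 (limma 3.58.1, R 4.3.3): the low-count filter of filterByExpr, TMM scaling, a robust quasi-likelihood fit with 4 residual degrees of freedom, and Benjamini-Hochberg adjustment over all 15247 genes tested, called under 0.05. The procedure was also run on counts simulated from the means and dispersions of these libraries. That run used the same model as the fit, so it cannot show how well the calls here hold. Scaled counts are counts divided by the library's TMM-scaled total and multiplied by the mean of those totals over the 6 libraries. DESeq2 1.42.0 was an alternative. Total counts of 15924740 to 18283418 a library leave genes with few reads imprecise, which is why reads are given for them, and counting error is only part of the spread.

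The comparison, the gene lists and the tests were chosen with earlier results of these data known. Genes named by size were the 12 largest rises, the 12 largest falls and the 10 most read among called protein-coding genes that were also called in the 9-library fit, had no overlap between groups and averaged 50 scaled counts or more in one group, outside the collagen chain, cell cycle and skeletal muscle lists. Of each list up to 4 members with the smallest p were named, and members needed for its roles. Alternatives were a 9-library fit, DESeq2, other scaling factors, other filters, a block for replicate number, muscle terms, a test against a 1.5-fold change and leaving out each library. No sequence is printed. A few genes are not reported here.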

Additional observations from a re-analysis of the deposited data

How the results depend on the processing

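The count of 1456 called genes (889 higher, 567 lower) was within 1.5 times with RLE size factors (1433), with TMM factors computed without collagen and muscle genes (1455), with no low-count filter (1382) and with a stricter filter (1553). DESeq2 called 2487 (1364 higher, 1123 lower), the 9-library fit 687 (479 and 208), the 9-library fit with a skeletal muscle score as covariate 471 (325 and 146), and the test against a 1.5-fold change 105 (86 and 19). The 9-library fit without the 4 muscle-rich libraries, which left Injury with 1 library assumed to vary like the others, called 1 gene (1 and 0), Or2b4 of the olfactory receptor family, named here after its value was seen and not among the 1456. With muscle class as a factor, an alternative chosen after seeing the data, 778 were called (499 and 279). Leaving out 1 library at a time gave 146 to 1887 called genes, 106 to 1021 higher and 40 to 866 lower. In these fits a group held 2 libraries, and beyond that the cause was not tested. A block for replicate number gave 800 (484 and 316). Injury and Sham libraries of the same number had deviations that correlated at 0.11, -0.38 and 0.64, Injury 2 correlated best with Sham 1, and the libraries share only a number. Of the 208 called genes given by the naming rules, 84 lost the call in the 9-library fit, 65 with the block, 57 with muscle class, 111 with the muscle score, 7 without the filter, 2 with RLE factors and 0 with DESeq2, and 0 changed direction in any fit. Acta1 and Ckm alone took 0.0677 %, 0.953 % and 0.00201 % of counts in Injury, against 0.291 %, 0.000779 % and 0.000916 % in Sham, which puts the libraries in the same order as the whole list. Genes with few reads, such as transmitters and neutrophil granule genes, lie under what this depth can compare.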

Other observations

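Among fibroblast markers 2 of 14 tested were higher and 2 lower (median log2 change -0.20). Thy1, a surface protein of mesenchymal cells, had 3979.99, 4729 and 4788 scaled counts in Injury, against 1851, 2148 and 1968 in Sham (log2 change 1.18 ± 0.11 SE, edgeR adjusted p = 0.0045), with no overlap, and Col14a1 rose by 1.45. Gsn (gelsolin), which severs actin filaments, had 109772, 87291 and 143652 scaled counts in Injury, against 195499, 229126 and 227528 in Sham (log2 change -0.94 ± 0.19 SE, edgeR adjusted p = 0.029), with no overlap, and lost the largest share of the libraries, at 0.607 % of counts in Injury against 1.43 % in Sham. C3 was the other gene that was lower, while Pdgfra, the common marker of fibroblasts, stood at -0.22 without a call. Of 42 tested mesenchymal transcription factors 3 were higher, near the 5.83 % of all tested genes, Sox4, Six2 and Alx4 at 1.00, 1.08 and 0.81. Their count was 0 without Sham 3, 1 in the 9-library fit or without Injury 1, Injury 3 or Sham 2 and 10 without Sham 1, and that of the 2 lower fibroblast markers was 0 in the 9-library fit or without Injury 1, Injury 2 or Sham 3, 1 without Injury 3 or Sham 2 and 5 without Sham 1. Thy1 and Col14a1 were called whichever library was left out, and Gsn, Six2 and Alx4 were not called in the 9-library fit (edgeR adjusted p 0.0511 to 0.193).

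Of 17 tested genes of histones and their handling 5 were higher (median 0.33): the histone chaperone genes Asf1b and Chaf1b at 1.79 and 1.04, the histone messenger RNA binding protein Slbp at 0.52, the variant Macroh2a2 at 1.43 and the linker histone H1f0 at 0.92. The count of 5 was 3 in the 9-library fit, 2 with muscle class as a factor, 2 without Injury 1, 1 without Injury 3, 1 without Sham 2 and 0 without Sham 3. Immediate early and Kruppel-like factors were lower in 4 of 30 tested, Maff, Klf4, Klf2 and Myc at -1.41, -0.84, -0.60 and -0.58. Their count was 0 in the 9-library fit, 1 with muscle class as a factor, 1 without Injury 1, 1 without Injury 2, 1 without Injury 3, 7 without Sham 1, 1 without Sham 2 and 1 without Sham 3. In the actin cytoskeleton 6 of 41 were higher and 4 lower, against 5.83 % and 3.72 % of all tested genes. The non-muscle myosins differed in direction, Myh10 at 0.57 and Myh9 at -0.42. The higher count was 0 without Sham 3, 1 without Injury 3, 2 in the 9-library fit or without Injury 1 or Sham 2 and 3 with muscle class as a factor or without Injury 2, and the lower 0 without Injury 1, Injury 3, Sham 2 or Sham 3, 1 in the 9-library fit or with muscle class as a factor and 2 without Injury 2. In autophagy and the lysosome 3 of 33 were higher and 2 lower, against those same shares of all tested genes. Among the higher was Ctsk, the collagen-degrading cathepsin K, which had 9087, 8467 and 11167 scaled counts in Injury, against 5067, 4515 and 5473 in Sham (log2 change 0.93 ± 0.13 SE, edgeR adjusted p = 0.013) with no overlap. Without Sham 3 the autophagy counts were 0 and 0. Chaf1b, H1f0, Maff, Klf4, Klf2, Myc and Myh9 were not called in the 9-library fit (edgeR adjusted p 0.0564 to 0.144).

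The p53 target list held 2 higher and 3 lower of 29, the cell death list 1 and 4 of 27 and Notch signalling 1 and 2 of 17. The list of IGF, FGF, PDGF and VEGF factors held 2 and 0 of 36, and sex hormone signalling 0 and 1 of 19. Of all tested genes 5.83 % were higher and 3.72 % lower. Without Sham 3 each of these list counts was 0. Of 3 tested B and plasma cell markers 0 were called by edgeR, 1 had an unadjusted p under 0.05 and 2 were called by DESeq2.

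Some groups were picked after their values were seen, and so have no test. Among genes that share the stem of a symbol, 5 of 8 tested C1qtnf genes, which encode secreted proteins with a C1q domain, 8 of 18 Adamts proteases and 3 of 5 Armcx genes, which lie on the X chromosome, were higher in Injury. On the other side, 4 of 7 Gimap genes, GTPases of lymphocytes and endothelium, 8 of 25 Clec genes of C-type lectins and 8 of 32 Cyp genes of cytochrome P450 were lower. On the X chromosome 51 of 524 tested genes were called higher (9.73 %) and 12 lower (2.29 %), against 5.83 % and 3.72 % of all tested genes. Of the genes called whichever library was left out, Cpz, a carboxypeptidase that binds Wnt ligands, rose by 2.44, while Lrg1, a secreted leucine-rich glycoprotein, Spns2, the exporter of sphingosine 1-phosphate, Apoe, the lipid carrier, and Fth1, the heavy chain of ferritin, were at -1.49, -1.22, -1.31 and -0.86. Apoe had 8466, 7332 and 6633 scaled counts in Injury, against 15137, 18715 and 21697 in Sham, with no overlap.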
